A study of Mus musculus with 6 samples.

Results

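Male germ cells make many mRNAs long before the protein is needed, and RNA-binding proteins decide where, when and how long these messages are kept silent or translated. The mRNAs that encode 10 such regulators in the mouse testis were followed here: the Y-box proteins Ybx1, Ybx2 and Ybx3, the DAZ-family proteins Dazl and Boll, the cytoplasmic polyadenylation element-binding protein Cpeb2, the helicase Ddx25, the AU-rich element-binding protein Elavl1, the double-stranded RNA-binding protein Tarbp2 and the polypyrimidine tract-binding protein Ptbp2. They were chosen by gene symbol, ignoring case. Of the 10, 9 were found, with 23 contigs (reference transcripts) of the 11517 annotated contigs, or 9 of 7319 genes and unnamed contigs, and 14650 reads in all. Dazl matched no contig and was not analysed here.

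Testes of adult wild-type C57BL/6J/B6 mice were dissociated, and cells were sorted by their DNA content, fluorescence and scatter after staining with Hoechst and propidium iodide. The 3 samples of pachytene and diplotene spermatocytes (P/D spermatocytes) are enriched for cells late in the first meiotic prophase. The 3 samples of round spermatids (RS) are enriched for the haploid cells that follow meiosis. The labels name no treatment or allele beyond this strain, and each sample was mRNA pooled from 3 mice. Every mouse gave both cell types, per the methods. The RNA was read as native molecules on nanopores, so each read gives both the transcript and the length of its poly(A) tail, the run of adenosines at the 3′ end that poly(A)-binding protein covers.

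Samples held between 244004 and 474688 reads. The 3 P/D samples were barcoded into 1 library and the 3 RS samples into another, so a difference between libraries cannot be told apart from one between the cell types in any value below. The labels were checked with marker genes: 10 round spermatid markers took 0.0387% to 0.0502% of the reads in P/D samples and 0.312% to 0.343% in RS, and 10 elongating spermatid markers took 0.193% to 0.262% and 2.44% to 2.95%. Markers of pachytene and diplotene cells took 0.372% to 0.408% in P/D samples and 0.265% to 0.309% in RS. Of the 9 of them tested with edgeR, 5 were lower and 2 higher in RS, so this list was mixed. Of 6 markers of leptotene and zygotene cells 1 had a contig, with 18 to 29 reads in P/D samples and 3 to 9 in RS. Of 6 Leydig cell markers 1 had a contig, with 3 to 7 reads in P/D samples and 1 to 5 in RS. Of 7 Sertoli cell markers 2 had contigs, with at most 2 reads in a sample, and of 7 spermatogonial markers 1 had a contig, with 2 to 5 reads in P/D samples and at most 2 in RS. Defining markers such as Sox9, Wt1, Zbtb16 and Kit had no contig. The germ cell genes Dazl, Dmc1 and Meiob had none either, so a missing contig does not show that a cell type is absent. The P/D gate is the less pure of the 2 gates: by the paper's microscopy a large part of its cells were not P/D spermatocytes. The part of other cells in the values below was not tested.

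Several of these transcripts end at different places, and those of Boll and Ptbp2 are compared below. The last bases of the transcripts, read from GENCODE vM21 on the GRCm38 build and written 5′ to 3′ on the transcript's own strand, are shown for the transcripts compared below, with the hexamer that matches a known polyadenylation signal in capitals.
Boll, ENSMUST00000173983, 2635 bases long, chr1:55268856-55268885, minus strand: aattAATAAAaactttggatttactgacaa
Boll, ENSMUST00000114423, 1106 bases long, chr1:55300069-55300098, minus strand: gagccaATTAAAgtaaggagtttattttga
Ptbp2, ENSMUST00000200097, 3777 bases long, chr3:119718742-119718771, minus strand: cataAATAAAtccagatgctgtgaaaatgc
Ptbp2, ENSMUST00000198403, 389 bases long, chr3:119760556-119760585, minus strand: attctgacAATAAAccaattaaatgtctgc
Elavl1, ENSMUST00000098950, 5743 bases long, chr8:4285382-4285411, minus strand: ctgacattgctgtccaaagtcaacAATAAA
Ybx1, ENSMUST00000079644, 1628 bases long, chr4:119277981-119278010, minus strand: gcacctgttAATAAAggtcttaaataataa
Ybx2, ENSMUST00000018698, 1673 bases long, chr11:69941576-69941605, plus strand: cAGTAAAaacaaaagcaggctttcttgttg
The canonical AATAAA stood within the last 50 bases of 61.1% of the 11344 contigs with a sequence, ATTAAA in 17.6% and AGTAAA in 4.52%, where a transcript can hold more than 1 of them, and 21.4% held none of these. Both Boll transcripts end on the same strand 31213 bases apart, and the short one uses ATTAAA. The Ybx2 transcript shown holds AGTAAA and neither of the other hexamers in this window. Another Ybx2 transcript, ENSMUST00000149194, holds none of them. These matches describe the sequence and were not tested as sites of cleavage.

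Accumulation, the share of a sample's reads that a gene takes, was compared first. It was lower in RS for 6 of the 9 regulators (Boll, Ptbp2, Ybx3, Tarbp2, Ybx1 and Ybx2), higher for 2 (Cpeb2 and Elavl1), and not distinguishable for Ddx25. Over all 4967 genes tested with edgeR's quasi-likelihood test, 31.2% were lower and 34.7% higher in RS at an adjusted p under 0.05, and the median log2 fold change was 0.01 for all genes and -0.35 for the 9 regulators. Because these are shares of sorted bulk RNA, fewer cells of a type and less RNA per cell cannot be told apart. Values are CPM, counts scaled to a common library size after TMM normalization, and every difference is RS over P/D spermatocytes on the log2 scale.

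**Figure D1:**
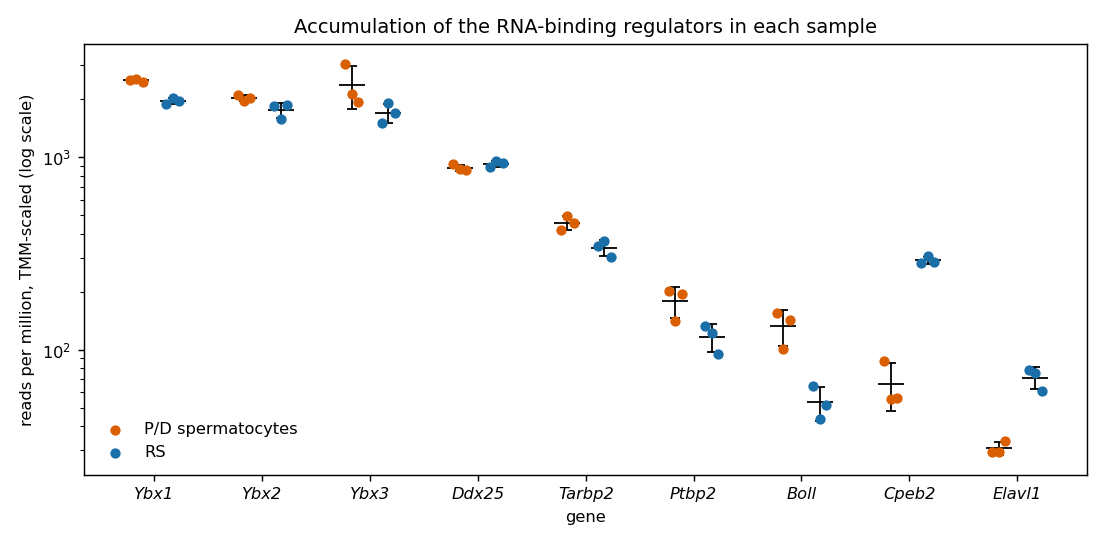
Accumulation of the 9 regulators, in TMM-scaled CPM on a log axis; each point is 1 sample, with P/D spermatocytes in orange and RS in blue, and black lines show the mean and SD of 3 samples. The RS points of Cpeb2 and Elavl1 lie above all P/D points, those of Ddx25 overlap, and those of the other 6 genes lie below.

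Y-box proteins coat mRNA through a cold-shock domain. Ybx2 is the germ cell member known for packaging stored messages, Ybx1 is expressed in most cells, and Ybx3 is a second Y-box protein abundant in testis. Ybx1 took 2501, 2537 and 2461 CPM in P/D samples and 1888, 2032 and 1957 in RS. All RS values lay below all P/D values, at a log2 fold change of -0.35 (SE 0.08, edgeR adjusted p = 0.000319), a 1.27-fold decrease. Ybx3 took 3057, 2128 and 1930 CPM in P/D samples and 1498, 1897 and 1688 in RS. The P/D samples of Ybx3 were the more spread, with the first far above the others, and still did not overlap with RS (log2 fold change -0.48, SE 0.11, edgeR adjusted p = 0.000251). Without P/D replicate 1 the change was -0.27, still past the threshold (edgeR adjusted p = 0.0208). Ybx2 took 2108, 1965 and 2035 CPM in P/D samples and 1844, 1578 and 1856 in RS, a log2 fold change of -0.21 (SE 0.09, edgeR adjusted p = 0.0334). That is the smallest of the called changes, and it was not past the threshold with at least 10 counts in every sample (-0.09, edgeR adjusted p = 0.418), with DESeq2 (adjusted p = 0.136), without P/D replicate 1 (edgeR, 0.0752) or without RS replicate 2 (edgeR, 0.265).

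Among the regulators of translation, Cpeb2, which binds U-rich elements in 3′ ends and controls the translation of its targets, had the largest change. It took 87.8, 55.6 and 56.0 CPM in P/D samples and 281, 305 and 287 in RS, on 15 to 21 and 83 to 133 reads. RS was far above every P/D sample, at a log2 fold change of 2.15 (SE 0.21, edgeR adjusted p = 9.18e-12) or 4.45-fold. Boll, a DAZ-family activator of translation needed for spermatid development, moved the opposite way, from 155, 101 and 142 CPM to 64.4, 43.6 and 51.8 (log2 fold change -1.32, SE 0.26, edgeR adjusted p = 2.07e-05). Its decrease was 2.5-fold, on 17 to 19 reads in RS. Ddx25, the gonadotropin-regulated testis helicase that spermatids need to export and translate messages, took 916, 870 and 855 CPM in P/D samples and 885, 950 and 930 in RS. These overlapped (log2 fold change 0.07, SE 0.10, edgeR adjusted p = 0.563).

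Elavl1, also called HuR, binds AU-rich elements and often stabilises its targets. It took 29.3, 29.4 and 33.6 CPM in P/D samples, on 7, 9 and 9 reads, and 78.0, 75.7 and 61.0 CPM in RS, on 23, 33 and 20 reads. All RS values lay above (log2 fold change 1.21, SE 0.32, edgeR adjusted p = 0.00115). Tarbp2, a partner of Dicer that spermatids also need to translate protamine messages, went from 418, 497 and 452 CPM to 346, 367 and 302 (log2 fold change -0.43, SE 0.14, edgeR adjusted p = 0.00565). Ptbp2, a splicing regulator of germ cells and neurons, went from 201, 141 and 194 CPM to 132, 122 and 94.5 (log2 fold change -0.60, SE 0.21, edgeR adjusted p = 0.0102). Both were lower in every RS sample, and for Ptbp2 the call was lost without RS replicate 3 (edgeR adjusted p = 0.0564).

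Tail length was then compared as the mean over the reads of a gene in each sample. Tails were longer in RS for 7 of the 9 regulators, shorter for Elavl1 and not distinguishable for Boll. Lengthening was the common direction: limma called 54.8% of 5407 genes longer and 2.07% shorter, and the median gene went from 114 nt in P/D samples to 157 nt in RS. The median difference was 45.5 nt over the 9 regulators and 35.0 nt over all genes. Thus the 7 longer tails alone do not set these messages apart, and what follows concerns how far and in which molecules each one moved.

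**Figure D2:**
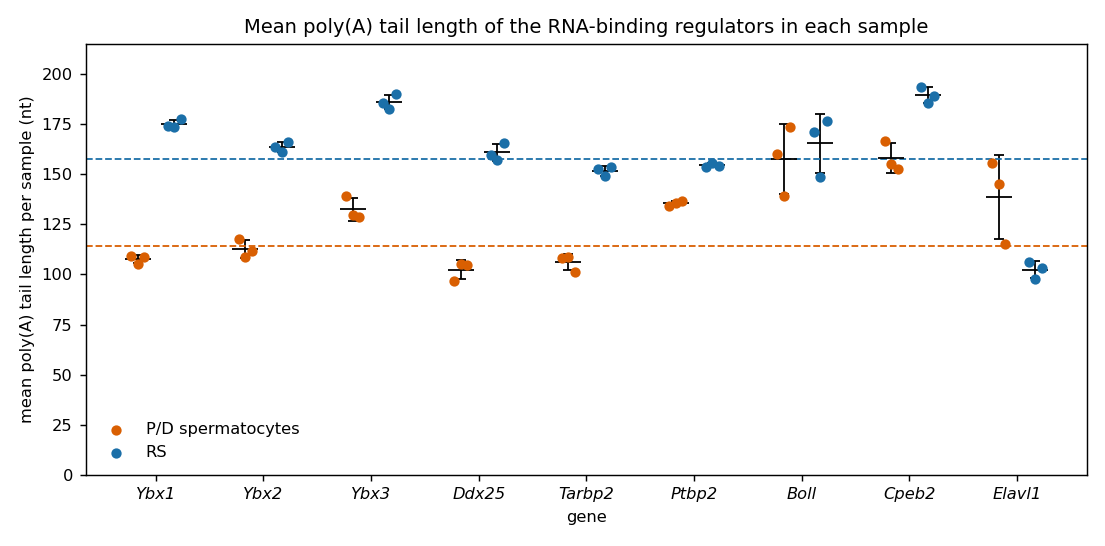
Mean poly(A) tail length in nt of the 9 regulators in each sample, with P/D spermatocytes in orange, RS in blue, and the mean and SD of 3 samples in black; dashed lines mark the median over all genes tested, 157 nt in RS and 114 nt in P/D spermatocytes. Boll overlaps, Elavl1 lies lower in RS, and the other 7 genes lie higher in every RS sample. Of 5110 genes with a tail in all 6 samples, 3183 had every RS value above every P/D value, and 159 had every RS value below.

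The Y-box messages all gained long tails. Ybx1 had mean tails of 109, 105 and 109 nt in P/D samples and 174, 174 and 178 nt in RS, a difference of 67.4 nt (SE 4.65, limma adjusted p = 0.000253). It rose from a tail below the median gene in P/D spermatocytes, at the 38.8th percentile, to the 82.6th percentile in RS. Ybx3 already stood at the 70.0th percentile, with 139, 130 and 129 nt, and reached 186, 183 and 190 nt (difference 53.5 nt, SE 5.49, limma adjusted p = 0.000434), the 94.7th percentile. Ybx2 went from 118, 109 and 112 nt to 164, 161 and 166 nt (difference 50.9 nt, SE 5.06, limma adjusted p = 0.000394). No RS sample of these 3 genes overlapped with the P/D range.

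The reads of these genes show where the gain lay. In P/D samples 31.1%, 28.6% and 28.2% of Ybx1 reads had tails of 120 to 210 nt, the long class, and 64.7%, 65.5% and 66.0% had tails of 30 to 120 nt, the short class. In RS the long class held 86.0%, 83.7% and 83.6% of them, and the short class 2.87%, 3.95% and 2.65%. Short-tailed Ybx1 was thus nearly gone from RS. The 10th percentile of its tails was 50.8 ± 2.61 nt (SD, n = 3) in P/D samples and 142 ± 1.65 nt in RS, while the 90th percentile was 179 ± 3.97 nt and 214 ± 2.21 nt. The low end of the distribution moved much further than the high end, as the plot of cumulative tail lengths shows.

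**Figure D3:**
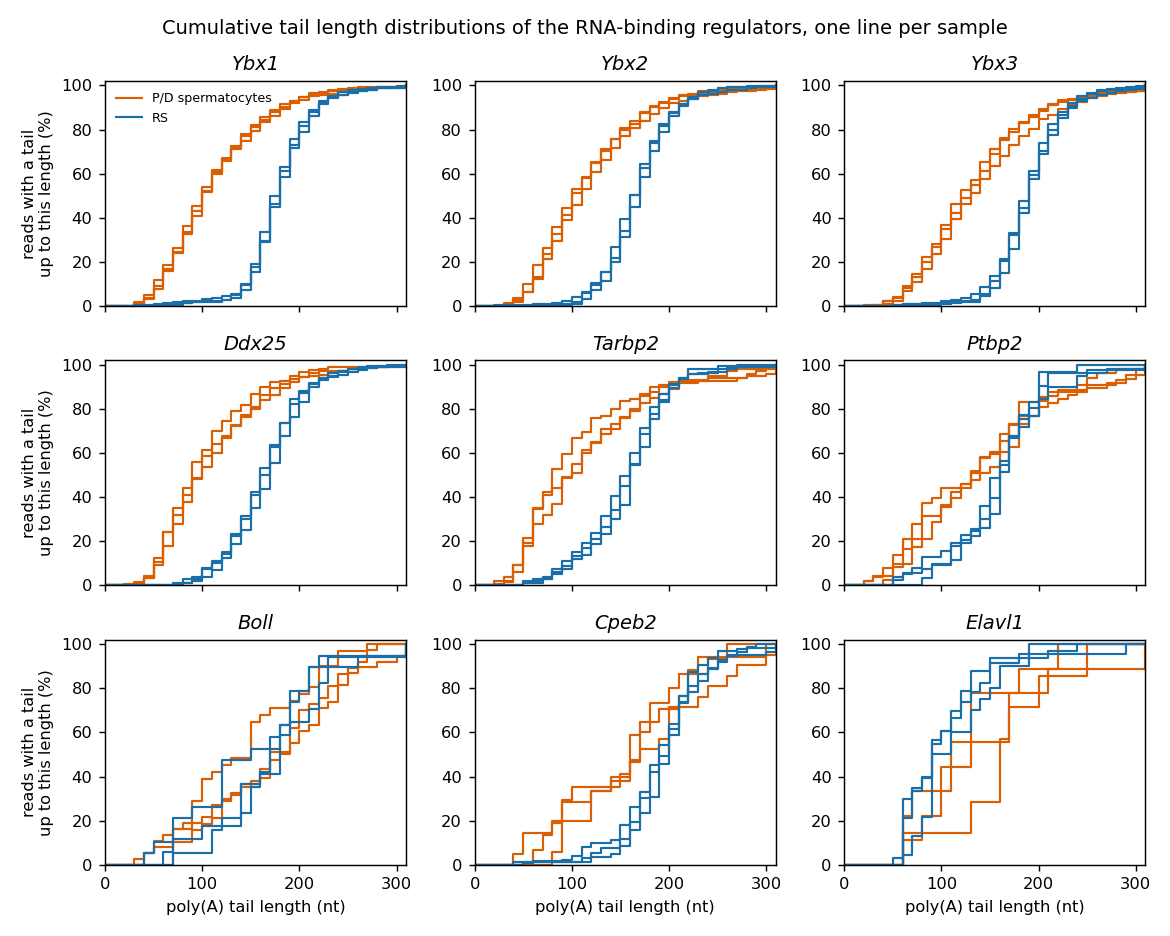
Share of reads in percent with a tail up to a given length in nt, in 10-nt steps, for each of the 9 regulators, 1 line per sample, with P/D spermatocytes in orange and RS in blue; tails over 300 nt are in the last step. The lines of Ybx1, Ybx2 and Ybx3 lie further apart at the 10th than at the 90th percentile, as do those of Ddx25 and Tarbp2, those of Boll cross, and those of Elavl1 are reversed.

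Ddx25 and Tarbp2 followed the same course, again without a rise in accumulation. Ddx25 tails averaged 96.8, 105 and 105 nt in P/D samples and 160, 157 and 166 nt in RS (difference 58.6 nt, SE 5.37, limma adjusted p = 0.000323). Tarbp2 tails averaged 108, 109 and 101 nt and then 153, 149 and 153 nt (difference 45.5 nt, SE 4.96, limma adjusted p = 0.000531). Neither gene had overlapping groups, and Ddx25 gained tail length at a level of RNA that did not measurably differ. Its long class rose from 23.3%, 29.3% and 27.1% of reads to 77.0%, 76.6% and 77.7%, and that of Tarbp2 from 28.0%, 27.6% and 15.7% to 75.5%, 70.0% and 72.7%.

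Cpeb2 and Ptbp2 started from longer tails and gained less. Cpeb2 averaged 167, 155 and 152 nt in P/D samples, the 88.5th percentile of all genes, and 193, 185 and 189 nt in RS, percentile 96.2 (difference 31.3 nt, SE 5.97, limma adjusted p = 0.00499). Its 90th percentile was 237 ± 26.6 nt (SD, n = 3) in P/D samples, on 15 to 21 reads each, and 239 ± 8.81 nt in RS. With that spread a shift of the high end cannot be told, and none was tested. The 10th percentile, in contrast, was 66.7 ± 16.6 nt and 146 ± 7.63 nt. Ptbp2 averaged 134, 136 and 137 nt and then 154, 156 and 154 nt (difference 19.0 nt, SE 4.50, limma adjusted p = 0.0122). The 10th percentile of Ptbp2 moved from 53.0 ± 6.63 nt to 94.5 ± 18.5 nt, and the 90th from 241 ± 8.26 nt to 200 ± 10.6 nt. These shifts were not tested. They pool transcripts with different tails, so a change in the mix of transcripts cannot be told apart from them.

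Elavl1 was the exception. Its tails averaged 156, 145 and 115 nt in P/D samples and 106, 97.7 and 103 nt in RS, a difference of -36.4 nt (SE 11, limma adjusted p = 0.0304). The groups did not overlap, but the P/D values rest on 7, 9 and 9 reads and spread widely. The call was lost with the median of reads (limma adjusted p = 0.0696), with tails of 10 to 300 nt only (0.0726), with the equal-variance test (0.0771), and when any sample other than P/D replicate 3 was left out, while all these differences were negative. Higher accumulation together with shorter tails was called for 0.448% of the 4909 genes tested for both, and Elavl1 is among those 22 genes. In RS its mean tail stood at the 4.12th percentile of all genes.

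**Figure D4:**
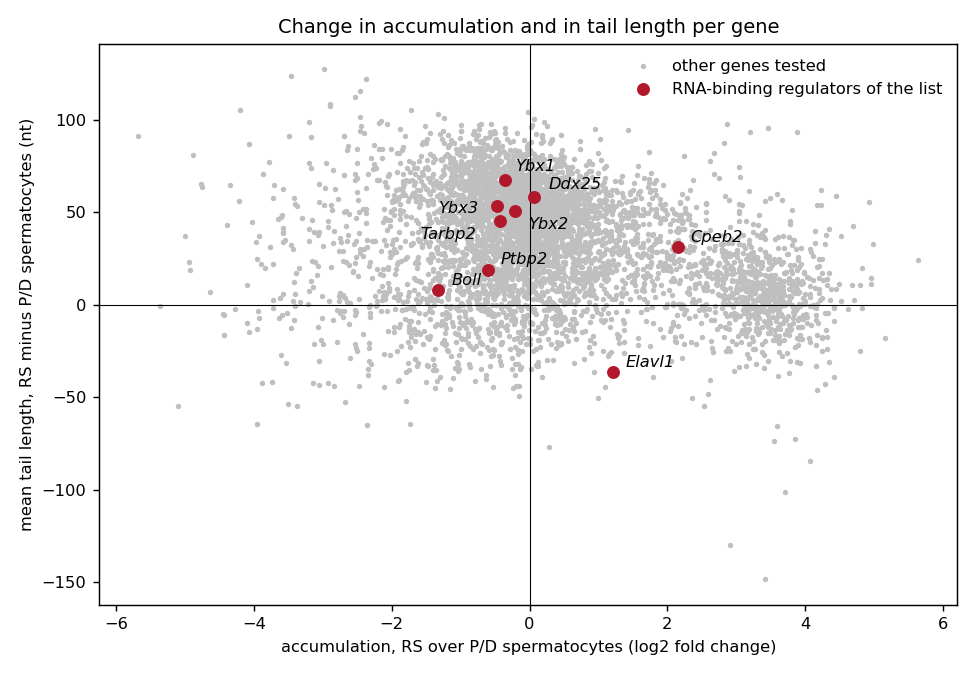
Change in mean tail length in nt against log2 fold change in accumulation, both RS against P/D spermatocytes, with 1 point for each of 4909 genes and the 9 regulators in red. Elavl1 is the only regulator of the list below the zero line of tail length and lies to the right, Cpeb2 lies far right, and the other 7 lie between -1.32 and 0.07 on the x axis.

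Because lengthening was general, tails were also set against the median over tested genes in the same sample. This median moved from 114 nt in P/D samples to 157 nt in RS, more than the median difference over genes, 35.0 nt. Relative to the sample median Ybx1 rose by 24.4 nt (SE 4.59, limma adjusted p = 0.0115). Elavl1 fell by 79.5 nt (SE 10.2, limma adjusted p = 0.00512), Ptbp2 by 24.1 nt (SE 5.08, 0.0159) and Boll by 35.1 nt (SE 10.7, 0.0460). So 1 of 9 regulators rose and 3 fell, against 13.9% and 23.3% of the 5407 genes tested. Ddx25 (15.5 nt, limma adjusted p = 0.0740), Ybx3 (10.4 nt, 0.131), Ybx2 (7.88 nt, 0.216), Tarbp2 (2.45 nt, 0.709) and Cpeb2 (-11.8 nt, 0.127) did not pass the threshold. The small values of Ybx2 and Tarbp2 changed sign when the median was taken over genes that had 50 reads or more in each sample, and the Boll call was lost when any sample other than P/D replicate 2 was left out. The Ptbp2 call was lost without RS replicate 1 (limma adjusted p = 0.0535) or RS replicate 3 (0.0534), and Cpeb2 passed the threshold with the median of reads (-27.0 nt, 0.00989), with at least 10 reads per sample (-17.2 nt, 0.0208) and with the centre on better-read genes (-20.2 nt, 0.0376).

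The share of reads with tails of 120 to 210 nt was higher in RS for the same 7 genes that had longer tails, against 55.9% of 5407 genes by limma. The differences were 55.2 percentage points for Ybx1 (limma adjusted p = 0.000241), 51.3 for Ybx2, 50.5 for Ddx25, 49.0 for Tarbp2, 36.9 for Ybx3, 33.2 for Ptbp2 and 24.2 for Cpeb2 (limma adjusted p = 0.00996). With an upper bound of 180 nt, Ybx3 (10.2 points, limma adjusted p = 0.0598) and Cpeb2 (3.66 points, 0.699) were not past the threshold, and 20.1% ± 2.50 (SD, n = 3) of Ybx3 reads and 25.4% ± 1.74 of Cpeb2 reads in RS had tails of 210 nt or more. None of the 9 fell by this measure, against 2.74% of all genes. Elavl1 had 71.4%, 44.4% and 33.3% of its reads in the long class in P/D samples and 21.7%, 18.2% and 40% in RS, which overlap (limma adjusted p = 0.129).

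Transcripts of 1 gene with different 3′ ends were then separated. Boll gave the clearest case. Mean tails over the whole gene were 160, 139 and 174 nt in P/D samples and 171, 149 and 177 nt in RS, a difference of 7.93 nt (SE 11.6, limma adjusted p = 0.595), and the groups overlapped. The 2635-base transcript had mean tails of 182, 152 and 181 nt in P/D samples and 170, 143 and 163 nt in RS (difference -13.4 nt, SE 11.4, limma adjusted p = 0.360). Its median tails were 185, 147 and 186 nt in P/D samples and 134, 115 and 117 nt in RS, and on the median it was called shorter (difference -50.7 nt, limma adjusted p = 0.0166), as it was with tails of 10 to 300 nt only (-48.8 nt, 0.00447). Its 6 to 14 RS reads spread widely, with an SD among reads of 93.8 to 136 nt in RS and 60.8 to 73.6 nt in P/D samples. The 1106-base transcript went from 108, 93.6 and 83.8 nt to 171, 164 and 185 nt, a difference of 78.3 nt (SE 9.02, limma adjusted p = 0.000795), on 3 to 11 reads in P/D samples and 5 to 13 in RS. Within a P/D sample the mean tails of the 2635-base transcript were longer by 73.8, 58.7 and 97.5 nt, and within an RS sample they were shorter, with differences of -1.90, -21.0 and -22.0 nt. This comparison of both transcripts was chosen after the values were seen and is given as a description.

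Counts of the Boll transcripts moved unequally too. The 2635-base transcript fell from 26, 24 and 35 reads to 6, 14 and 6 (log2 fold change -2.14, SE 0.33, edgeR adjusted p = 2.70e-07). The 1106-base transcript had 11, 7 and 3 reads in P/D samples and 13, 5 and 11 in RS, too few for the count filter. Its share of Boll reads, summed over samples, was 21 of 106 (19.8%, exact binomial 95% interval 12.7% to 28.7%) in P/D samples and 29 of 55 (52.7%, 38.8% to 66.4%) in RS. By sample these shares were 29.7%, 22.6% and 7.90% and then 68.4%, 26.3% and 64.7%. RS replicate 2 lies within the P/D range, and a 2-sided exact permutation test over the samples gave p = 0.2 (0.286 adjusted over the 20 transcript shares and differences compared). The intervals cover counting error only.

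**Figure D5:**
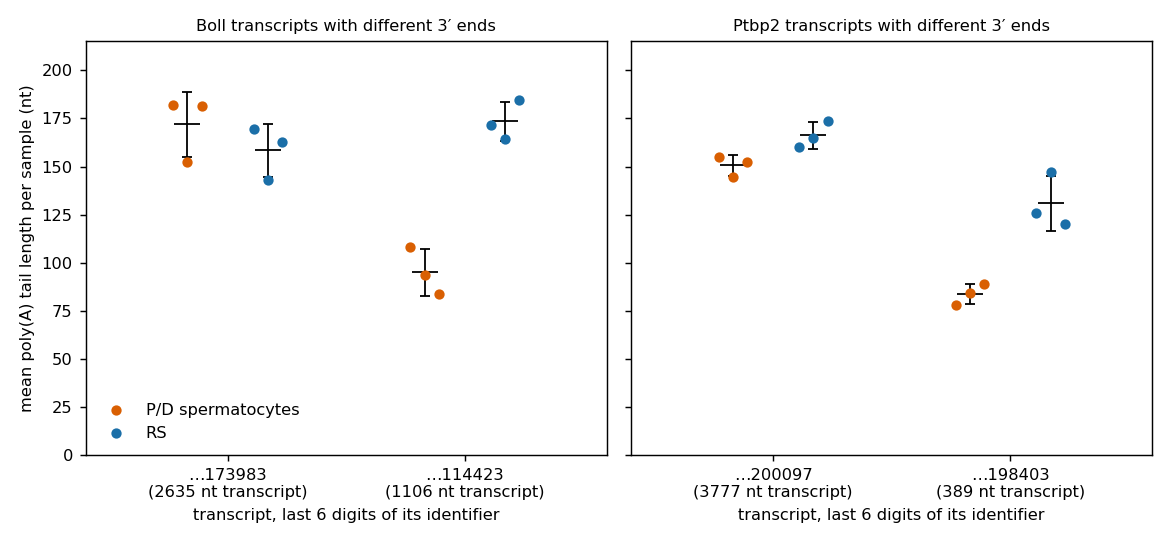
Mean poly(A) tail length in nt of the 2 most read transcripts of Boll and of Ptbp2 in each sample, named by the last digits of their identifiers, with P/D spermatocytes in orange, RS in blue, and the mean and SD of 3 samples in black. The short transcript of each gene lies far below the long one in P/D spermatocytes, level with or above it for Boll in RS, and closer to it for Ptbp2 in RS.

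Ptbp2 showed a like contrast. Its 389-base transcript, which ends 41814 bases upstream of the full-length ones, had tails of 78.1, 84.5 and 88.7 nt in P/D samples and 126, 147 and 120 nt in RS (difference 47.1 nt, SE 8.70, limma adjusted p = 0.00466). The 3777-base transcript had 155, 144 and 152 nt and then 160, 165 and 174 nt (difference 15.7 nt, SE 6.55, limma adjusted p = 0.0862). The short transcript took 31.0% ± 8.28 (SD, n = 3) of Ptbp2 reads in P/D samples and 30.6% ± 4.40 in RS, so its part in the gene was nearly level. A further full-length transcript, ENSMUST00000029780, held 9, 8 and 13 reads in P/D samples and 3, 3 and 2 in RS, below the filters of both tests. Its share of Ptbp2 reads was 20.8% ± 3.65 (SD, n = 3) in P/D samples and 6.60% ± 1.02 in RS.

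The transcripts of the Y-box genes all moved the same way. Both Ybx1 transcripts were 67.3 and 71.7 nt longer in RS, both Ybx3 transcripts 49.8 and 66.5 nt, and the 4 Ybx2 transcripts between 39.8 and 62.0 nt, all called by limma. The least of these, ENSMUST00000149194 of Ybx2 (limma adjusted p = 0.0460), was not past the threshold when any sample other than P/D replicate 3 was left out. The main Tarbp2 transcript was 51.4 nt longer (limma adjusted p = 0.00117), and a minor one, ENSMUST00000131184, annotated to nonsense-mediated decay, differed by -15.2 nt (0.475), a value that was positive with the median of reads. Of the 3 Cpeb2 transcripts, only ENSMUST00000114065 was called, at 46.8 nt (limma adjusted p = 0.0147, but 0.191 with the median of reads), while ENSMUST00000166713 differed by -15.4 nt (0.181) on 2 to 3 P/D reads and was called shorter without P/D replicate 1 (-23.5 nt, 0.0244). All 3 were higher in RS by 1.88 to 2.78 on the log2 scale, on 2 to 13 reads in a P/D sample. The main Elavl1 transcript, shown above, had tails 37.4 nt shorter (limma adjusted p = 0.0260), with the same dependence on 3 to 9 P/D reads. In all, 13 of the 19 regulator transcripts with enough reads were longer and 1 was shorter, against 54.2% and 1.69% of 6990 transcripts. In accumulation 5 of 17 were higher and 6 lower, against 32.6% and 30.8% of 6005. None of the 5 higher ones had at least 10 counts in every sample.

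Transcript usage, tested with edgeR as unequal change among the transcripts of 1 gene, was called for 2 of the 5 regulators that had at least 2 testable transcripts, against 20.3% of 1026 genes. In Ybx2 (edgeR adjusted p = 0.000692) a retained-intron transcript, ENSMUST00000148395, rose from 11, 8 and 6 reads to 17, 32 and 23, or from 1.54% ± 0.570 (SD, n = 3) to 3.85% ± 0.766 of the gene. That transcript passed on its own (adjusted p = 0.00592), though not without P/D replicate 3 (0.0878) or RS replicate 2 (0.0616). The full-length Ybx2 transcript shown above took 77.6% ± 3.02 and 68.5% ± 2.10 of the gene and did not pass on its own (adjusted p = 0.538). These Ybx2 transcripts end within 29 bases of each other, so their reads are told apart by upstream sequence that truncated reads can lack. The Ybx1 call (adjusted p = 0.0264) was lost with Simes' combination of transcripts (0.0686) and without P/D replicate 2 (0.131), P/D replicate 3 (0.116) or RS replicate 2 (0.579). Cpeb2, Ptbp2 and Ybx3 did not pass the threshold. Ptbp2 did pass without P/D replicate 2 (edgeR adjusted p = 0.0324) or without RS replicate 1 (0.0425). Boll, Elavl1, Tarbp2 and Ddx25 could not be tested with all samples.

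The pattern was set beside 85 other RNA-binding regulators, of which 51 had a contig. In accumulation 9 of 35 tested were higher and 17 lower in RS, against 34.7% and 31.2% of all genes, the median being -0.73 on the log2 scale. In tail length 16 of 38 were longer and 2 shorter, against 54.8% and 2.07% of all genes, with a median difference of 25.9 nt. Highest in RS was Samd4, a Smaug-family repressor, which went from 33.5, 29.4 and 29.9 CPM to 403, 312 and 451 (log2 fold change 3.63, edgeR adjusted p = 1.89e-16), and Adad1, Fxr1 and the germ cell helicase Ddx4 were also among the highest. Lowest was Pcbp1, a poly(C)-binding protein, which went from 435, 412 and 411 CPM to 13.6, 29.8 and 9.14 (log2 fold change -4.45, edgeR adjusted p = 1.16e-18), followed by Hnrnpa2b1, Hnrnpk, Serbp1 and Matr3. Among genes in which no sample had fewer than 20 reads, tails grew most in Serbp1 (76.9 nt), Caprin1 (73.7 nt), Fxr1 (59.4 nt) and Pcbp2 (41.2 nt), each called by limma. Hnrnpk tails went from 145, 154 and 154 nt to 129, 111 and 117 nt, a difference of -32.5 nt (limma adjusted p = 0.00645), with accumulation falling as well. The other shortened gene was Hnrnpa2b1, at -37.8 nt on 12 to 25 reads in RS. With the same limit on reads, the smallest called gains were those of Adad1 (20 nt), Khdrbs3 (36.6 nt), Larp1b (38.7 nt) and Larp1 (38.9 nt).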

How the data were processed

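The authors basecalled and demultiplexed the nanopore reads, aligned them to GENCODE transcripts of GRCm38 with minimap2 (2.20-r1061 in the submitters' processing notes) and estimated tails with Nanopolish. They deposited raw counts of reads per contig and a second table with another measurement, a tail length (nt) for every read. Both tables hold the same reads for all 12114 contigs.

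Reads were summed per gene symbol, leaving out 597 repeat contigs. Coordinates, lengths and sequences came from GENCODE vM21, also GRCm38. Counts were tested with edgeR 4.0.16 (TMM, filterByExpr, glmQLFit and glmQLFTest). Mean tails, tails minus the sample median, and the percent of tails in a class were tested with limma 3.58.1 (R 4.3.3) on genes with at least 10 reads in 2 replicates of a cell type. Transcript usage was tested with diffSpliceDGE. Adjusted p-values are Benjamini-Hochberg values over all features, with a threshold of 0.05. The tests were checked on simulated data. Tail changes were simulated only in genes with more reads than Elavl1 or either Boll transcript, so tail calls on so few reads were not covered. Transcripts named were those of the regulators with at least 10 reads in 2 replicates of a cell type, and, of the other regulators, the 5 most extreme past the threshold in each direction of each measure, of which 1 gene is not reported here. The members and lists were chosen with earlier results of these data known. Of the reads on Ybx2, 23 were also listed on Eif5a. Transcripts of 6 other genes resembled Ybx1 over at least 300 bases at 90% identity, and none of them was a contig here. P-values measure the spread between pools of 3 mice.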

Additional observations from a re-analysis of the deposited data

How the results depend on the processing

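Over the alternatives, 126 counts stayed within 1.5 times and 23 did not. Of the values of single genes or transcripts, 791 kept their sign and their side of the threshold, 57 lost the call, 13 gained it and 14 changed sign, the last all in results that were not called. The 1 gene with shorter tails became 0 with the median of reads, with at least 10 reads in every sample, with tails of 10 to 300 nt and with the equal-variance test, and 0 to 1 when a sample was left out. The 1 transcript with shorter tails became 0 with at least 10 reads in every sample, the equal-variance test and the replicate block, and 0 to 1 when a sample was left out. The gene is Elavl1, which at least 10 reads in every sample removes, as its P/D samples hold fewer. The transcript is Elavl1 ENSMUST00000098950, but with the median of reads and with tails of 10 to 300 nt it is Boll ENSMUST00000173983 in its place, and without P/D replicate 1 it is Cpeb2 ENSMUST00000166713. The same requirement on counts left 1 gene and 0 transcripts higher and 3 transcripts lower in RS, since it removes Elavl1, each transcript called higher and the long Boll transcript, while ENSMUST00000087865 of Ybx3 and ENSMUST00000023813 of Tarbp2 no longer passed. Genes with lower tails relative to the median numbered 1 to 3 when a sample was left out. Genes called for transcript usage numbered 1 with Simes' combination and 1 to 3 when a sample was left out. For the others the cause was not tested.

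Signs changed as follows. Ddx25 accumulation was -0.024 (log2) with library size only, and at the transcript level -0.00085 with library size only, -0.038 with no filter and -0.015 to 0.078 when a sample was left out. Boll tails were -1.38 nt with the median of reads, -3.05 nt with tails of 10 to 300 nt and -1.32 to 16.3 nt when a sample was left out. Against genes with at least 50 reads in each sample, Ybx2 was -0.53 nt and Tarbp2 -5.97 nt, and Tarbp2 was -2.97 nt with at least 10 reads. Ybx2 ENSMUST00000108601 accumulation was -0.022 to 0.224 (log2) and Cpeb2 ENSMUST00000169035 tails -0.035 to 28.3 nt when a sample was left out, and Tarbp2 ENSMUST00000131184 tails were 20.4 nt with the median of reads.

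P/D and RS samples that share a number correlated in their deviations at 0.03, 0.10 and 0.04 in tails and 0.03, 0.36 and 0.13 in accumulation, over 867 genes. Each mouse gave both cell types, but the sources do not say that a number marks the same pool, so the main fits are not paired. With the replicate block, 2 genes were higher and 6 lower in accumulation and 7 longer and 1 shorter in tails, as without it, and Ptbp2 was the 1 gene whose call relative to the median was lost (limma adjusted p = 0.0538), while 12 transcripts were longer and 0 shorter. Depth limits Elavl1 (7 to 9 P/D reads), the 1106-base Boll transcript (3 to 11) and the Cpeb2 transcripts ENSMUST00000166713 (2 to 3) and ENSMUST00000169035 (4 to 5).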
